A study of Homo sapiens with 6 samples.

Results

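The genes described here are 38 genes that p53 switches on or that carry out and restrain apoptosis, in HEK293, a cell line of human embryonic kidney origin. They were chosen as a list of gene names: every probe set whose gene name was one of the 38 symbols, or another symbol of the same Entrez gene, was taken. This gave 104 of the 45033 probe sets on the array, for 38 of its 23595 named genes. ZMAT3 and TIGAR stand in the files under older symbols. RNA was hybridised to 6 one-colour NimbleGen arrays labelled with Cy3, in 3 groups of 2 arrays. The first group received an shRNA against SET8 and then Wnt3a conditioned medium, the second a control shRNA and Wnt3a medium, and the third the same control shRNA and control medium. They are called SET8, Wnt3a and control-medium arrays below. All groups share the line, about 40 hours of transfection and 7 hours in their medium before RNA was extracted. The study's design text calls the transfected reagent both an siRNA and an shRNA, so its form is not settled. Nothing in the labels says whether replicates were separate cultures, so the p-values measure only the spread between these arrays, which may be technical. The SET8 shRNA in control medium is not analysed here, and whether the Wnt3a difference depends on SET8 could not be tested.

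p53 is a transcription factor that is kept low by the ubiquitin ligase MDM2 and stabilised by DNA damage. It then turns on inhibitors of the cell cycle such as CDKN1A, repair genes, its own antagonists, and inducers of cell death. Death runs through surface receptors and caspase-8, or through BCL2 family proteins that open the mitochondrial membrane and let cytochrome c activate APAF1 and caspase-9. SET8, whose gene is now named KMT5A, is a lysine methyltransferase that puts a single methyl group on histone H4 and on p53, and the methyl mark on p53 is known to restrain its activity. HEK293 cells carry early genes of an adenovirus whose products bind p53 and RB, which limits the line as a model of p53 signalling. Wnt3a is a secreted ligand that stabilises beta-catenin.

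The values are log2 intensities, taken from the linear intensities that the authors deposited after RMA (robust multi-array average). A probe set was tested where it lay above the median of its array in at least 2 of the 6 arrays. Differences are log2 differences between means of 2 arrays with the moderated standard error (SE) of limma, and adjusted p-values are Benjamini-Hochberg values over all 23808 probe sets tested. Of the 104 probe sets, 79 of 35 genes were tested. All probe sets of MDM4, CCNG2 and RRM2B were too dim. Of the 79, 60 were above the median in all 6 arrays and 19 in fewer. The probe sets differ in their probes, so their levels are not compared with each other.

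The array medians lay between 7.63 and 7.79 on the log2 scale, and the random control probes between 4.66 and 4.84. The shRNA target was dimmer in the SET8 arrays: KMT5A (AY064546) read 8.97 and 9.65 in SET8 arrays, 11.20 and 10.53 in Wnt3a arrays and 11.03 and 10.75 in control-medium arrays, and its other probe set (NM_020382) differed by -1.11 between SET8 and Wnt3a arrays. Neither passed the test in limma (adjusted p = 0.236 and 0.326). The Wnt feedback gene NKD1 read 11.61 and 11.63 in Wnt3a arrays, against 8.97 and 8.70 in control-medium arrays, a log2 difference of 2.79 (limma, adjusted p = 0.0911). AXIN2, another Wnt feedback gene, differed by 1.56 and 1.99 in its 2 probe sets in the same comparison. The labels thus matched the direction of these genes, none of which passed the threshold. Epithelial markers were bright, with 4 of 5 above the median in all arrays, as were 5 of 8 embryonic kidney and neuronal-like markers. STMN2, one of the latter, was above the median in no array.

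Replicates differed unevenly, and the p53 and apoptosis genes took part in this. Over all tested probe sets, 1.86% differed more than 2-fold between the 2 SET8 arrays, 8.98% between the 2 Wnt3a arrays and 6.87% between the 2 control-medium arrays. Of the 79 member probe sets, 0 did so in the SET8 group, 21 (26.6%) in the Wnt3a group and 9 (11.4%) in the control-medium group. Replicate 1 was the higher in 17 of those 21 and in 8 of those 9. Among all tested probe sets more than 2-fold apart, it was the higher in 1413 of 2138 in the Wnt3a group and 1230 of 1636 in the control-medium group. The probe sets of CASP8, CCNG1 and ZMAT3 were among them in the Wnt3a group, with gaps of 1.57 to 2.50 for CASP8, 1.18 to 1.24 for CCNG1 and 1.35 to 1.48 for ZMAT3. Replicate numbers do not order samples, and the source of this gap was not tested. With 2 arrays per group, the number of arrays limits the precision of every value below.

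**Figure D1:**
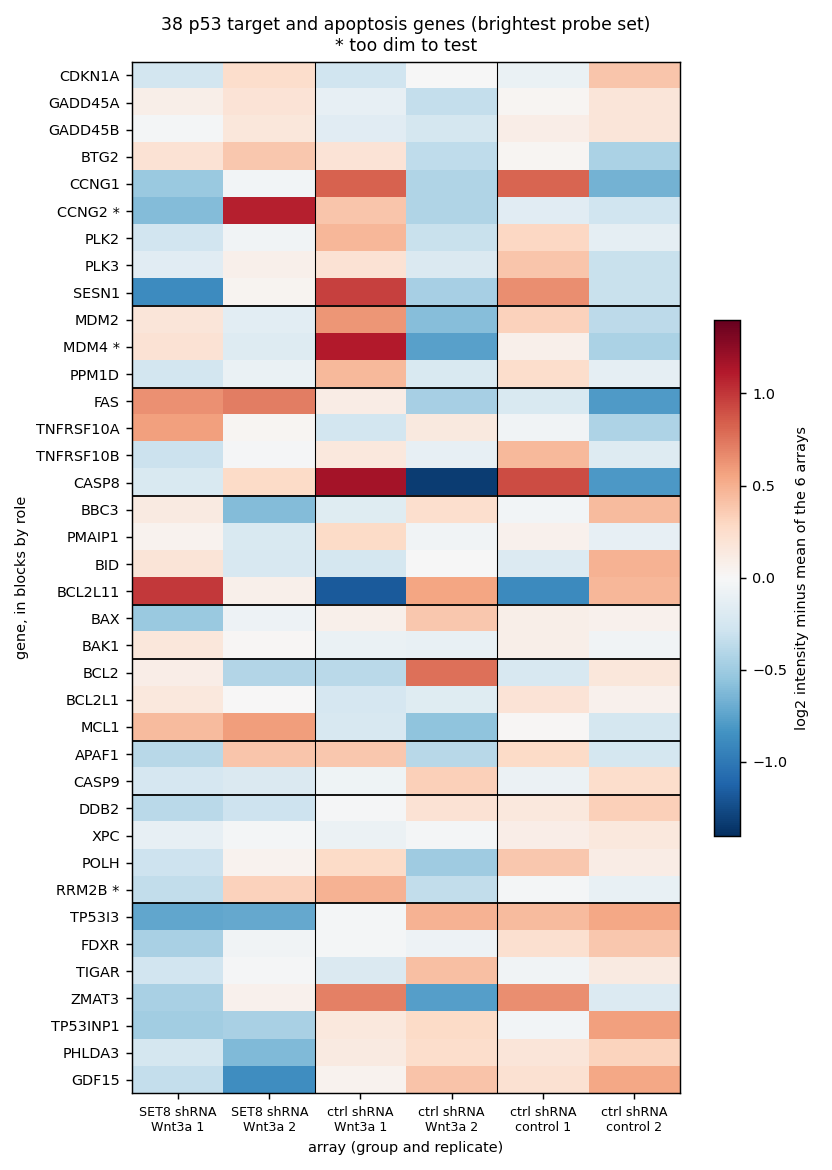
Colour gives the log2 intensity of the brightest probe set of each of the 38 genes in each of the 6 arrays (columns), minus its mean over the 6 arrays; rows run in blocks by role and an asterisk marks the 3 genes too dim to test. TP53I3 and GDF15 in the bottom block are blue in both SET8 arrays, FAS and MCL1 are red in both, and CASP8 and CCNG1 differ between replicate 1 and replicate 2 of both control shRNA groups.

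With SET8 shRNA, in Wnt3a medium, TP53I3, GDF15, PHLDA3 and TP53INP1 read dimmer in both arrays, and FAS and MCL1 brighter, but 0 of the 79 member probe sets had an adjusted p under 0.05 in limma. The background was the same: 0.0% of the 23808 probe sets passed in this comparison, and without either control-medium array 28 did, with 0 members among them. With a term for the gap between replicates of the control shRNA groups, chosen after seeing the data, 2 member probe sets (2.53%) passed, MCL1 at NM_021960 and TP53I3 at NM_147184 (limma, adjusted p = 0.0474 for MCL1), against 2.25% of all tested probe sets. A block with exchanged SET8 replicate numbers, also chosen after seeing the data, called 0.764% of all probe sets and 0 members, and an adjusted p under 0.1 called 0.0798% and 0 members. At an unadjusted p under 0.05, 9 of 79 member probe sets (11.4%) of 8 genes passed, against 7.16% of all tested probe sets. By direction, 2 member probe sets (2.53%) were higher and 7 (8.86%) lower, against 3.76% and 3.41% of all tested probe sets. Of the 7 lower ones, 3 (of GDF15, TP53INP1 and BCL2L11) were above the median in no SET8 array, so only their brightness in control shRNA arrays had them tested, and the count is no support for a direction. Without probe sets of that kind, a split chosen after seeing the data, 4 of 70 members (5.71%) were lower, against 2.81% of the 23061 others. The arrays of the 2 groups did not overlap for 10 higher (12.7%) and 18 lower (22.8%) member probe sets, against 17.1% and 17.0% of all tested ones, and 4 of the 18 were of that kind. Probe sets of 1 gene are not independent, and the 10 were of 8 genes and the 18 of 13. By the brightest probe set of each gene, 7 of the 38 genes were higher without overlap and 7 lower. Of all 23595 genes on the array, 3856 and 4088 were. With both SET8 arrays at least 1.5-fold beyond both Wnt3a arrays, 1 member probe set was higher, against 1.7% of all tested ones. Lower were 3 (3.8%), against 1.46% of all, and 1 of these (TP53INP1) was above the median in no SET8 array. Taking the brightest probe set of each gene, 15 of the 38 genes were higher and 23 lower, with a median log2 difference of -0.12, while the median over all genes on the array was 0.00. That median rests on single arrays: it was 0.09 without replicate 1 of the Wnt3a group and -0.28 without its replicate 2. In bulk RNA, fewer cells with a transcript and less of it per cell cannot be told apart.

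TP53I3, a quinone oxidoreductase tied to reactive oxygen in p53-driven death, had the smallest unadjusted p of the members. Its probe set NM_004881 read 10.78 and 10.39 in SET8 arrays, 11.44 and 11.75 in Wnt3a arrays, and 11.91 and 11.84 in control-medium arrays. Both SET8 arrays lay below all 4 others. The log2 difference between SET8 and Wnt3a arrays was -1.01 (SE 0.25, 95% interval -1.61 to -0.42), 2.01-fold lower, and did not pass the test in limma (adjusted p = 0.316). The other probe set, NM_147184, read 10.83 and 10.85 in SET8 arrays, 11.54 and 12.04 in Wnt3a arrays and 12.00 and 12.10 in control-medium arrays, with a difference of -0.95 (limma, adjusted p = 0.360). Both probe sets cover the same stretch of chromosome 2, from 24153808 to 24161232 for NM_004881 in the build hg18 that the files use, so they share their gene and are not independent.

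GDF15, a secreted stress cytokine of the TGF-beta family, read 7.31 and 6.77 in SET8 arrays, 7.69 and 8.04 in Wnt3a arrays, and 7.85 and 8.19 in control-medium arrays at BC008962. The groups did not overlap, and the difference of -0.82 (SE 0.29) did not pass in limma (adjusted p = 0.574). Its other probe set, NM_004864, read 6.95 and 6.39 in SET8 arrays, 6.74 and 8.05 in Wnt3a arrays and 7.09 and 7.69 in control-medium arrays, and there the groups overlapped. PHLDA3, which competes with the kinase AKT for membrane lipids, read 12.86 and 12.49 in SET8 arrays, 13.22 and 13.35 in Wnt3a arrays and 13.27 and 13.41 in control-medium arrays at NM_012396. Both SET8 arrays lay below the other 4, with a difference of -0.61 (SE 0.24; limma, adjusted p = 0.655), and its probe set BC014390 gave -0.23 with overlapping groups.

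TP53INP1, which promotes the death-inducing activity of p53 and takes part in autophagy, read 7.00 and 7.03 in SET8 arrays, 7.63 and 7.76 in Wnt3a arrays and 7.45 and 8.06 in control-medium arrays at NM_033285. The difference was -0.68 (SE 0.27; limma, adjusted p = 0.657), and its other probe set was too dim. This probe set and both of GDF15 passed the filter only through control shRNA arrays, so being tested already required them to be bright there. FDXR, the mitochondrial reductase that feeds electrons to ferredoxin, differed by -0.13 to -0.21 in its 3 probe sets. TIGAR, a phosphatase that restrains glycolysis, differed by -0.25 and ZMAT3, a zinc finger RNA-binding protein, by -0.16 and -0.45. In this group of redox, metabolic and other targets, 7 of 7 genes were thus lower by their brightest probe set, with a median of -0.61 and 0 past the test. Of all genes whose brightest probe set was tested, 6441 of 13054 were lower. The group gathers targets of unlike function and includes GDF15 and TP53INP1, tested only through control shRNA arrays. The count is therefore no support for a direction.

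**Figure D2:**
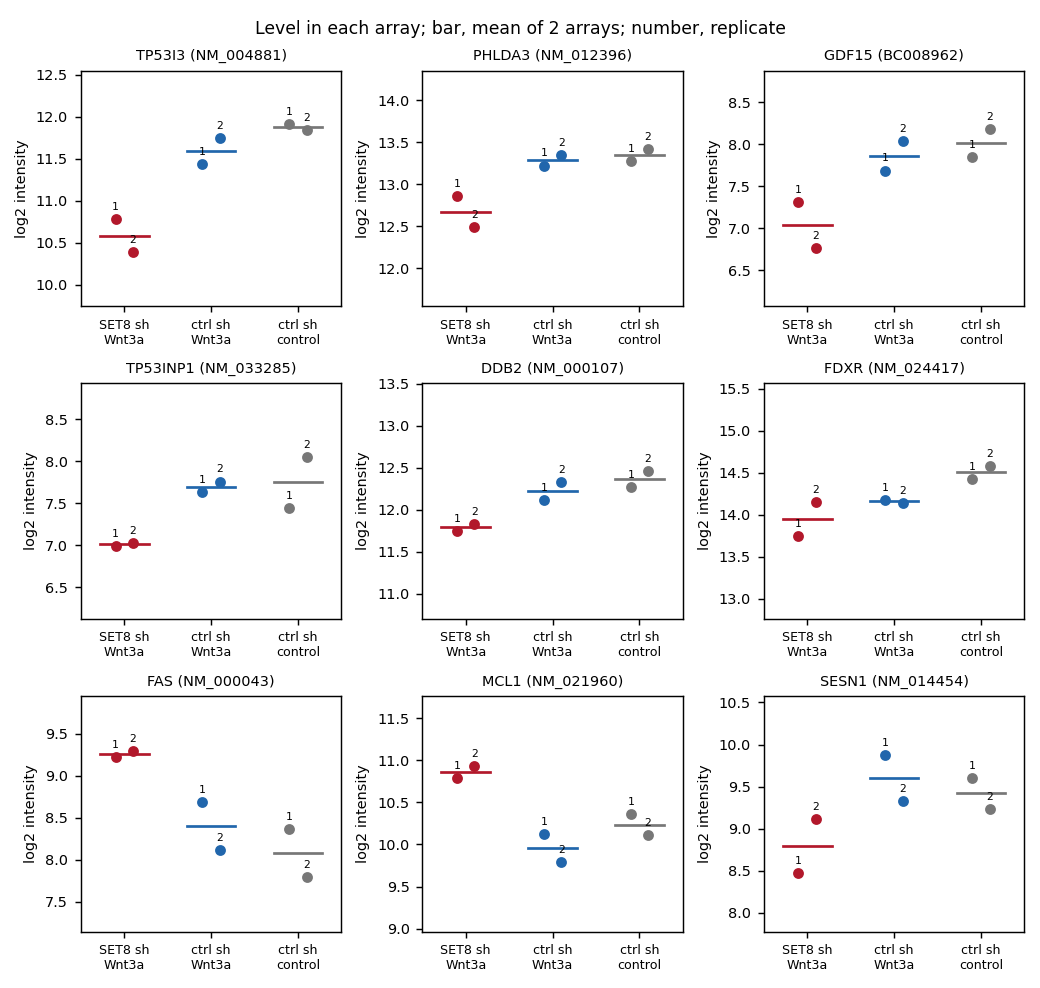
Each panel gives the log2 intensity of 1 probe set in the 6 arrays, with SET8 shRNA and Wnt3a medium at the left, control shRNA and Wnt3a medium in the middle and control shRNA and control medium at the right; dots are arrays numbered by replicate and bars are means of 2, and each vertical axis is centred on its own gene over the same span. Both SET8 arrays of TP53I3, PHLDA3, GDF15, TP53INP1, DDB2 and SESN1 lie below the 4 others, both of FAS and MCL1 lie above them, and 1 SET8 array of FDXR overlaps the Wnt3a arrays.

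Upstream sequence is given for TP53I3, GDF15, FAS and SESN1, 4 members with an unadjusted p under 0.05 in this comparison. Each had an entry in RefSeq's promoter table (build GRCh38.p14). Some members of smaller unadjusted p than SESN1 were left out, and lack of an entry need not be the reason for each. Entries were found for 31 of the 38 genes, 50 in all, and the 250 bases before each start were searched on both strands for the p53 half-site, the pattern p53 binds as a pair, and for CTTTGAT, the core bound by the TCF/LEF factors of the Wnt pathway. The half-site occurred in 7 of the 50 member windows (14.0%), of BAK1, CASP8, CASP9, FAS, FDXR, PLK2 and SESN1, and in 5.57% of the 35116 windows of all genes. The TCF/LEF core occurred in 1 member window, of BAK1, and in 2.26% of all windows. A match says only that the letters are there, and p53 sites outside these windows were not searched. The windows of TP53I3 (chr2:24084835-24085084, minus strand) and GDF15 (chr19:18385908-18386157, plus strand) held 0 half-sites and are shown whole; for FAS (chr10:88991304-88991333, plus strand) and SESN1 (chr6:109009013-109009042, minus strand), each with 3 starts listed, 30 bases around the match are shown, with the half-site in capitals, lying 122 to 113 bases before a listed start of FAS and 49 to 40 bases before one of SESN1.
TP53I3: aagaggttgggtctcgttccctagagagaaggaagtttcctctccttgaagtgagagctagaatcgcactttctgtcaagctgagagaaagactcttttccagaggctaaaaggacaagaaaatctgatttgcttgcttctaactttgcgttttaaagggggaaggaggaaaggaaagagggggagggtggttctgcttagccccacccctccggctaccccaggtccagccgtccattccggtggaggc
GDF15: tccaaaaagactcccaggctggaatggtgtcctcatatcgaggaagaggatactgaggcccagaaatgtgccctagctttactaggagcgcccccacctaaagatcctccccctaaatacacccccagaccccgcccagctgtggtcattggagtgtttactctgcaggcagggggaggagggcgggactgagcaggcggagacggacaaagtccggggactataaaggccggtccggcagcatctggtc
FAS: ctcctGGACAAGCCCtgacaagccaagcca
SESN1: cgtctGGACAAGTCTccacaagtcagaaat

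Among the cell cycle genes, CDKN1A, the p21 inhibitor of cyclin-dependent kinases and the best known p53 target, was bright and differed little. Its probe set NM_000389 read 14.57 and 15.07 in SET8 arrays, 14.55 and 14.83 in Wnt3a arrays and 14.73 and 15.21 in control-medium arrays. The 3 groups overlapped and the difference between SET8 and Wnt3a arrays was 0.13 (95% interval -0.55 to 0.81; limma, adjusted p = 0.994). NM_078467 read 14.02 and 14.09 in SET8 arrays, 14.36 and 13.96 in Wnt3a arrays and 14.08 and 13.87 in control-medium arrays, a difference of -0.10. SESN1, a stress-induced inhibitor of the growth kinase mTORC1, had lower values: 8.47 and 9.11 in SET8 arrays, 9.88 and 9.32 in Wnt3a arrays and 9.61 and 9.24 in control-medium arrays at NM_014454, with a difference of -0.82 (SE 0.32; limma, adjusted p = 0.657). Its probe set BC112036 gave -0.67 with overlapping groups, with 9.35 and 10.27 in SET8 arrays and 11.19 and 9.77 in Wnt3a arrays.

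The other cell cycle members differed by less than SESN1, and none reached an unadjusted p under 0.05. GADD45A and GADD45B, damage-induced partners of stress kinases, differed by 0.07 to 0.36 over 3 probe sets and by 0.27 and 0.38 over 2. BTG2, an antiproliferative adaptor of mRNA deadenylases, differed by 0.57 and 0.37. The cyclin CCNG1 differed by -0.49 and -0.34, and the Polo-like kinases PLK2 and PLK3 by -0.24 and -0.11 and by -0.04. Taking the brightest probe set of each, 5 of 9 genes of this group were higher and 4 lower, with CCNG2 untested and a median of 0.13.

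The feedback genes differed little at their brightest probe sets. MDM2 read 8.36 and 8.04 in SET8 arrays, 8.80 and 7.59 in Wnt3a arrays and 8.52 and 7.82 in control-medium arrays at its brightest probe set, AF092844. The 2 Wnt3a arrays lay on either side of the SET8 arrays, and the difference was 0.00 (95% interval -1.01 to 1.02). Of the 13 probe sets of MDM2, 7 were tested, with differences of -0.43 to 0.00. At 1 of these, NM_002392, the groups did not overlap, with 7.26 and 7.33 in SET8 arrays and 7.95 and 7.34 in Wnt3a arrays, and it was above the median in no SET8 array. PPM1D, the phosphatase that turns off damage signalling to p53, differed by -0.30 and -0.11. The probe sets of MDM4, an MDM2 relative that binds p53, gave no tested value.

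**Figure D3:**
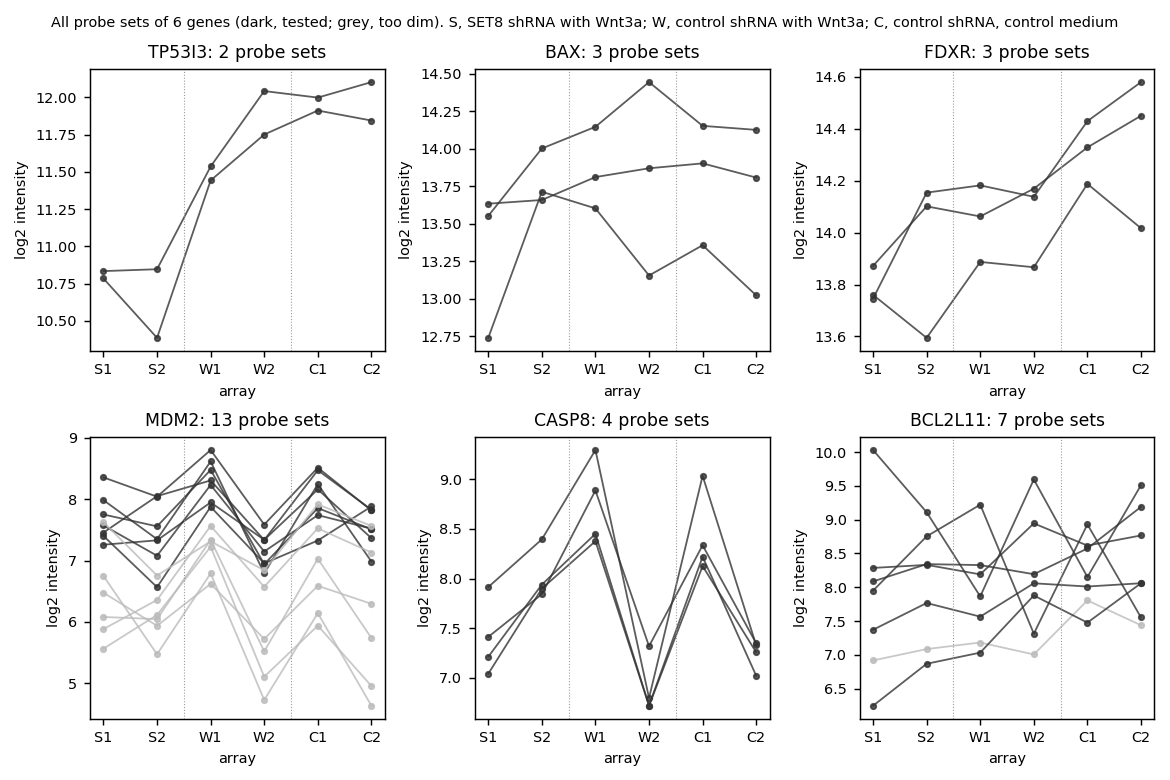
Lines join the log2 intensity of each probe set across the 6 arrays for TP53I3, BAX, FDXR, MDM2, CASP8 and BCL2L11, in the order SET8 shRNA with Wnt3a (S), control shRNA with Wnt3a (W) and control shRNA with control medium (C); dark lines were tested and grey ones were too dim. The 2 probe sets of TP53I3 run together, those of CASP8 share a peak at replicate 1 of both control shRNA groups, and those of BCL2L11 cross.

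Of the death receptors, FAS stood apart. FAS, the receptor of the death ligand FASLG, read 9.22 and 9.30 in SET8 arrays, 8.68 and 8.11 in Wnt3a arrays and 8.37 and 7.79 in control-medium arrays, at its single probe set on chromosome 10 (90740267 to 90765522 in hg18). Both SET8 arrays lay above all 4 others. The difference of 0.86 (SE 0.30, 95% interval 0.15 to 1.57), 1.82-fold higher, did not pass in limma (adjusted p = 0.576). TNFRSF10A, a TRAIL receptor, differed by 0.37 and its relative TNFRSF10B by -0.51 to -0.16 in 3 probe sets. CASP8, the initiator caspase these receptors recruit, read 7.91 and 8.40 in SET8 arrays, 9.30 and 6.80 in Wnt3a arrays and 9.04 and 7.33 in control-medium arrays at AF422925. Replicates of the control shRNA groups were further apart than any pair of group means, and its 4 probe sets gave -0.48 to 0.11.

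In the mitochondrial arm, MCL1 was higher and the BH3-only genes were mixed. MCL1, a short-lived pro-survival protein of the BCL2 family, read 10.80 and 10.94 in SET8 arrays, 10.13 and 9.79 in Wnt3a arrays and 10.37 and 10.11 in control-medium arrays at NM_021960. Both SET8 arrays lay above all 4 others, and the difference of 0.91 (SE 0.25, 95% interval 0.33 to 1.48), 1.88-fold higher, did not pass in limma (adjusted p = 0.363). Its second tested probe set, BC071897, read 8.76 and 9.06 in SET8 arrays, 9.06 and 7.68 in Wnt3a arrays and 9.17 and 8.59 in control-medium arrays, a difference of 0.55 with overlapping groups. The other pro-survival genes differed by 0.28 for BCL2L1 and -0.36 for BCL2.

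BBC3, which encodes the BH3-only activator PUMA, read 12.39 and 11.65 in SET8 arrays, 12.09 and 12.49 in Wnt3a arrays and 12.22 and 12.70 in control-medium arrays at AF354656. The groups overlapped, with differences of -0.27 there and -0.11 at NM_014417. PMAIP1, which encodes NOXA, differed by -0.48 to -0.19 in 3 probe sets, and BID, which links caspase-8 to mitochondria, by -0.33 to 0.10 in 4. BCL2L11, which encodes BIM, had 6 tested probe sets that disagreed, with differences of -0.90 to 0.84. Its probe set NM_207002, which passed the filter through control shRNA arrays alone, read 6.25 and 6.87 in SET8 arrays, 7.03 and 7.88 in Wnt3a arrays and 7.48 and 8.06 in control-medium arrays, with a difference of -0.90 (SE 0.38; limma, adjusted p = 0.694). Its brightest, AY423443, read 10.03 and 9.11 in SET8 arrays, 7.86 and 9.59 in Wnt3a arrays and 8.15 and 9.51 in control-medium arrays, so its 2 Wnt3a arrays alone spanned more than the difference of 0.84.

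BAX, which forms the mitochondrial pore, read 13.55 and 14.00 in SET8 arrays, 14.15 and 14.44 in Wnt3a arrays and 14.15 and 14.12 in control-medium arrays at NM_138761. The SET8 and Wnt3a arrays did not overlap, and the difference was -0.52 (SE 0.26; limma, adjusted p = 0.772). The other BAX probe sets gave -0.19 at NM_138763 and -0.15 at NM_004324, where replicates of the SET8 group read 12.74 and 13.71. BAK1, its partner, differed by 0.18. APAF1 and CASP9, which form the apoptosome, differed by 0.00 and, over 4 probe sets, by -0.35 to -0.18. Among the repair genes, DDB2, which recognises ultraviolet lesions, read 11.75 and 11.83 in SET8 arrays, 12.11 and 12.33 in Wnt3a arrays and 12.27 and 12.46 in control-medium arrays. Its groups did not overlap, with a difference of -0.43 (SE 0.23; limma, adjusted p = 0.809). XPC, another lesion sensor, differed by -0.02, and POLH, a polymerase that copies past lesions, by -0.01 and 0.15.

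**Figure D4:**
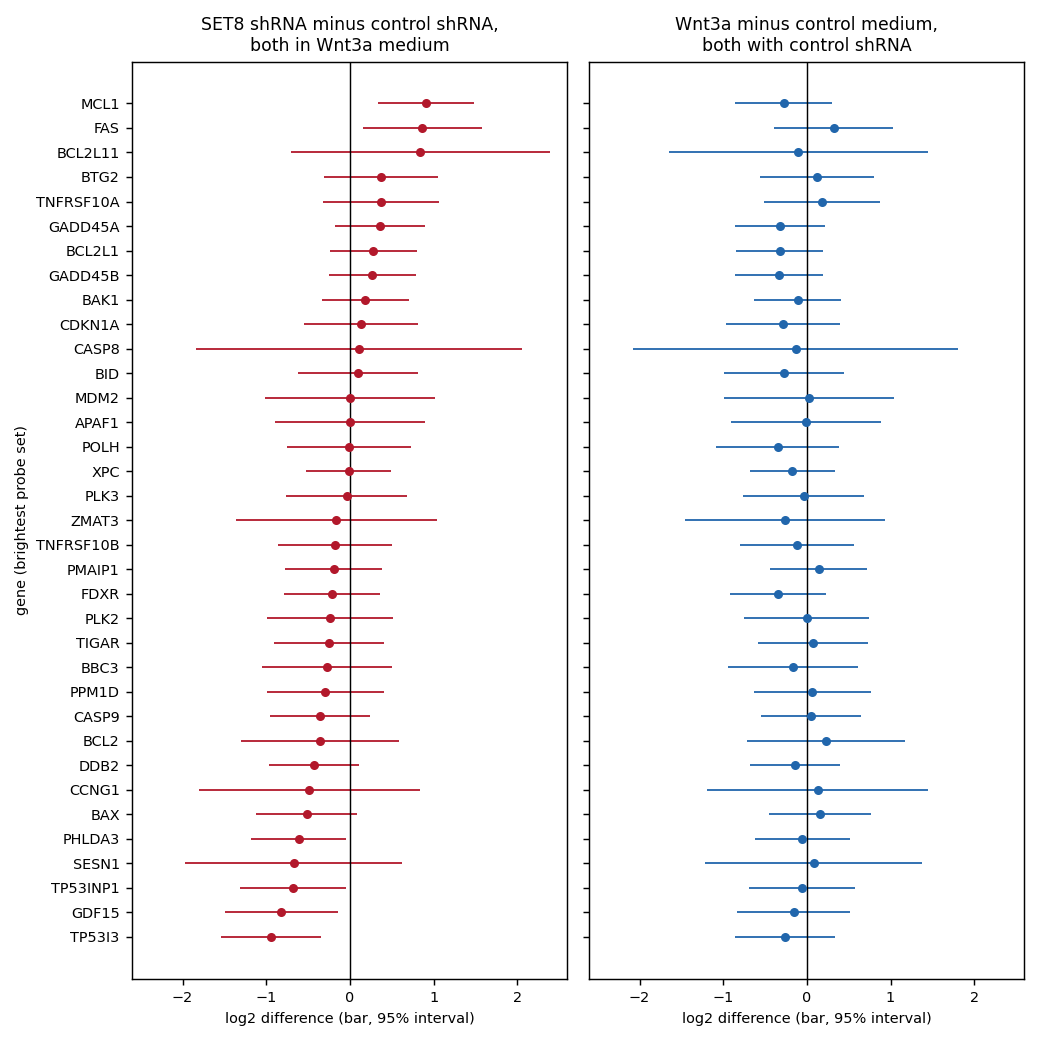
Points give the log2 difference of the brightest probe set of the 35 genes in which one was tested, with 95% intervals as bars, for SET8 minus control shRNA in Wnt3a medium at the left and Wnt3a minus control medium with control shRNA at the right, in the order of the left panel. In the left panel the intervals of MCL1 and FAS lie above 0 and those of TP53I3, GDF15, TP53INP1 and PHLDA3 below it before adjustment, while every interval in the right panel spans 0; both panels use the control shRNA arrays in Wnt3a medium.

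Wnt3a medium on control shRNA cells gave small differences in these genes. In this comparison 0 of 79 member probe sets passed the adjusted threshold in limma, as did 0.0% of all probe sets. Also 0 passed an unadjusted p under 0.05, against 2.14% of all tested probe sets, 1.61% higher and 0.529% lower. The term for the replicate gap called 0.0588%, the exchanged block 0.0126% and an adjusted p under 0.1 called 0.0084% of all probe sets, with 0 members in each. Member arrays did not overlap in 1 probe set that was higher (of CASP9) and 14 (17.7%) of 10 genes that were lower, against 12.0% and 9.15% of all tested probe sets. By the brightest probe set of each gene, 0 of the 38 genes were higher without overlap and 6 lower. Of all 23595 genes on the array, 3540 and 2766 were. No member probe set lay 1.5-fold apart in either direction, against 0.521% of all tested probe sets that were higher and 0.122% that were lower. Of the 38 genes, 15 were higher and 23 lower, with a median of -0.06, against 0.02 over all genes. Of 10 fibroblast markers, 8 were lower in Wnt3a arrays, with a median of -0.65, but only 4 had a tested brightest probe set. Those above the median in all arrays, COL1A1, COL5A1 and FBLN1, differed by 0.28, -0.05 and -0.07. The part of these markers in the member values was not tested.

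The member with the smallest unadjusted p was BCL2L11 at AB071195, with 8.33 and 8.19 in Wnt3a arrays and 8.57 and 9.19 in control-medium arrays (8.09 and 8.34 in SET8 arrays). Its difference was -0.62 (SE 0.28), while the other 5 tested probe sets of the gene gave -0.31 to 0.03. GADD45B at NM_015675 read 9.72 and 9.61 in Wnt3a arrays and 10.04 and 10.06 in control-medium arrays, a difference of -0.38, with 10.01 and 10.09 in SET8 arrays. GADD45A at BC011757 read 11.96 and 11.75 in Wnt3a arrays and 12.10 and 12.24 in control-medium arrays, a difference of -0.32, with 12.16 and 12.27 in SET8 arrays. In both GADD45 genes the Wnt3a arrays were the dimmest of the 3 groups at these probe sets.

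BCL2L1, which encodes the pro-survival protein BCL-XL, read 10.70 and 10.77 in Wnt3a arrays and 11.12 and 11.00 in control-medium arrays, a difference of -0.33, with 11.08 and 10.95 in SET8 arrays. FDXR at NM_024417 read 14.18 and 14.14 in Wnt3a arrays and 14.43 and 14.58 in control-medium arrays, a difference of -0.34, with 13.75 and 14.15 in SET8 arrays. BID at NM_001196 read 8.38 and 8.36 in Wnt3a arrays and 8.69 and 8.66 in control-medium arrays, a difference of -0.31, with 8.54 and 8.39 in SET8 arrays. The groups of these 3 probe sets did not overlap between the media. MCL1 at BC071897 gave -0.52 and POLH at NM_006502 gave -0.35, both with overlapping groups, and POLH read 9.66 and 8.90 in Wnt3a arrays and 9.77 and 9.50 in control-medium arrays, with 9.10 and 9.44 in SET8 arrays. FAS differed by 0.32, CDKN1A by -0.28 and 0.19, BBC3 by -0.17 and -0.47, and the 3 BAX probe sets by -0.01 to 0.19. The BAX and FAS groups overlapped in this comparison.

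Setting the SET8 arrays against the control-medium arrays joins both differences and uses the same arrays, so its values are not separate evidence. In it 12 probe sets (0.0504%) of the array passed the adjusted threshold in limma, and 0 of the 79 member probe sets did. The 12 became 0 without either SET8 array, 5 and 22 without replicate 2 and replicate 1 of the control-medium group, and 230 without either Wnt3a array, with 0 members in each case. With the term for the replicate gap, 5 member probe sets (6.33%) of TP53I3, FAS, GDF15 and BCL2L11 passed, 2 of them above the median in no SET8 array, against 6.31% of all tested probe sets, and with the exchanged block 4 (5.06%) passed, against 3.33% of all. An adjusted p under 0.1 called 0.655% of all probe sets and 0 members. At an unadjusted p under 0.05, 10 member probe sets (12.7%) passed, against 10.6% of all tested ones, of which 2 were higher, against 6.48% of all, and 8 lower (10.1%), against 4.07% of all. The same 3 probe sets of GDF15, TP53INP1 and BCL2L11 are among the 8, and without probe sets above the median in no SET8 array 5 of 70 members (7.14%) were lower, against 3.34% of the others. Groups did not overlap for 4 higher (5.06%) and 29 lower (36.7%) member probe sets, against 21.5% and 18.2% of all tested ones, and 6 of the 29 were above the median in no SET8 array. The 29 were of 18 genes, and probe sets of 1 gene are not independent. By the brightest probe set of each gene, 4 of the 38 genes were higher without overlap and 10 lower. Of all 23595 genes on the array, 4795 and 4298 were. Of the member probe sets without overlap, 1 was at least 1.5-fold apart and higher (FAS), against 3.36% of all, and 3 were lower (TP53I3 and, above the median in no SET8 array, BCL2L11), against 1.65%. Of the 38 genes, 11 were higher and 27 lower, with a median of -0.17, against 0.01 over all genes, while 7 of 10 fibroblast markers were lower, with a median of -1.05. COL1A1, COL5A1 and FBLN1, the fibroblast markers above the median in all arrays, differed by -0.22, 0.58 and 0.07.

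TP53I3 differed by -1.29 at NM_004881 (SE 0.25; limma, adjusted p = 0.120) and by -1.21 at NM_147184, beside -0.28 and -0.26 for Wnt3a alone. FAS differed by 1.19 (SE 0.30; limma, adjusted p = 0.200), 2.27-fold higher. GDF15 differed by -0.98 at BC008962 and -0.72 at NM_004864, BCL2L11 by -1.21 at NM_207002, PHLDA3 by -0.67 at NM_012396, TP53INP1 by -0.74 and DDB2 by -0.58. MCL1 differed by 0.63 at NM_021960, beside 0.91 against the Wnt3a arrays. FDXR differed by -0.40 to -0.55 in its 3 probe sets. In its group 7 of 7 genes were lower, with a median of -0.67, against 6238 of 13054 genes with a tested brightest probe set. GDF15 and TP53INP1 are again among the 7. CDKN1A gave -0.15 and 0.08, MDM2 0.03 at AF092844, BAX -0.36 to 0.04 and BBC3 -0.44 and -0.58.

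Further genes of the pathway, listed with earlier results of these data known, gave 0 probe sets past the adjusted threshold in any of the 3 comparisons. Of all 23595 genes on the array, 11784 were higher and 11811 lower between SET8 and Wnt3a arrays, with a median of -0.0008. Of 38 other p53 target genes on the array, 14 were higher and 24 lower between SET8 and Wnt3a arrays, with a median of -0.11. The smallest unadjusted p in this list belonged to IGFBP3, a secreted binder of insulin-like growth factors, with 8.16 and 8.80 in SET8 arrays, 7.74 and 7.26 in Wnt3a arrays and 7.37 and 7.49 in control-medium arrays at NM_000598. It was above the array median in the SET8 arrays alone, and differed by 0.98 (limma, adjusted p = 0.462), or 0.62 at BC000013. RPS27L, a ribosomal protein homologue induced by p53, differed by -0.71, SFN, which holds cell cycle kinases in the cytoplasm, by -0.31, and the sestrin SESN3 by -0.85. SESN3 and SFN had the smallest unadjusted p of the list for Wnt3a against control medium, with 1.07 and 0.52. The values of SFN are not those of its brightest probe set.

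Of 34 genes listed around the control of p53, 23 were higher and 11 lower between SET8 and Wnt3a arrays, with a median of 0.15. Among all genes on the array 11784 were higher and 11811 lower. The brightest probe set was tested for 28 of the 34. SMYD2, another methyltransferase that acts on p53, was read at BC049367, which is not its brightest probe set. It gave 10.58 and 10.48 in SET8 arrays, 9.23 and 9.73 in Wnt3a arrays and 9.55 and 9.50 in control-medium arrays. The difference was 1.05 (limma, adjusted p = 0.300). KMT5A, the shRNA target given above, is in this list too. The damage kinase ATM and the deacetylase HDAC1 differed by -0.73 and 0.41 for Wnt3a against control medium. Of 30 caspases, adaptors and inhibitors of apoptosis, 12 were higher and 18 lower between SET8 and Wnt3a arrays, with a median of -0.12. CYCS, which encodes cytochrome c, was read at NM_018947, which is not its brightest probe set. It gave 8.74 and 8.22 in SET8 arrays, 9.40 and 9.62 in Wnt3a arrays and 9.33 and 9.32 in control-medium arrays. The difference was -1.03 (limma, adjusted p = 0.316). CASP10, a relative of CASP8, differed by -0.79, CFLAR, the decoy that blocks CASP8, by 0.40 and the death receptor TNFRSF25 by 0.68. The values of CFLAR and TNFRSF25 are not those of their brightest probe sets.

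Of 14 other BCL2 family genes, 6 were higher and 8 lower between SET8 and Wnt3a arrays, with a median of -0.07. BOK, a BAX relative, and BCL2L13 differed by -0.48 and -0.43, and the mitophagy receptors BNIP3L and BNIP3 had 0.35 and 0.28 for Wnt3a against control medium. The values of BOK and BNIP3 are not those of their brightest probe sets. Of 16 cell cycle genes that active p53 is known to lower, 8 were higher and 8 lower, with a median of 0.01. In this list RRM2, the small subunit of ribonucleotide reductase, read 8.89 and 9.49 in SET8 arrays, 12.25 and 10.48 in Wnt3a arrays and 11.90 and 10.63 in control-medium arrays at NM_001034. Its difference was -2.18 (limma, adjusted p = 0.414) there and -0.60 at BC001886. E2F1, a driver of S phase, differed by 0.43 and the checkpoint kinase BUB1 by 0.45.

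Markers of other cell types were checked beside these results. Summed over 7 blood markers, the log2 intensity was 10.14 and 10.19 in SET8 arrays, 11.20 and 11.33 in Wnt3a arrays and 10.98 and 11.37 in control-medium arrays. HBA1, HBA2 and CD68 carried this, and HBB, PTPRC, CD3E and SPI1 were above the median in no array. Summed over 10 fibroblast markers it was 14.35 and 14.52 in SET8 arrays, 14.40 and 14.23 in Wnt3a arrays and 14.45 and 14.19 in control-medium arrays. Of these 10, 3 were above the median in all arrays (COL1A1, COL5A1 and FBLN1) and 4 in none (COL1A2, LUM, POSTN and PDGFRB). The sum follows the bright ones: gene by gene, 2 of 10 were higher and 8 lower in Wnt3a than in control-medium arrays, with a median of -0.65, and 3 were higher and 7 lower in SET8 than in control-medium arrays, with a median of -1.05. COL3A1, a fibrillar collagen, read 6.64 and 7.57 in SET8 arrays, 7.37 and 7.62 in Wnt3a arrays and 8.45 and 8.24 in control-medium arrays. DCN, COL1A2 and THY1, too dim to test, differed by -2.09, -1.58 and -1.35 between Wnt3a and control-medium arrays, where both control-medium arrays were the brighter. In that comparison the bright COL1A1, COL5A1 and FBLN1 differed by 0.28, -0.05 and -0.07, and the dim LUM by 0.21. The blood marker sum, like TP53I3, was lower in both SET8 arrays, and its part in the member values was not tested.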

How the data were processed

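For each array the authors deposited a linear intensity of every probe set, summarised by RMA according to the submitters' processing notes. Its version and settings are not given in the sources used here. Intensities in the deposited series table were identical to those of the array files. A deposited column named as a standard error, on no stated scale, was not used. Coordinates are those of hg18 per the file headers. Symbols were updated by Entrez ID through a RefSeq table (38916 probe sets matched, 86.4%).

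Log2 of the intensity was taken with no offset. Models with 3 groups were fitted to all 6 arrays in limma 3.58.1 under R 4.3.3 (lmFit and eBayes; 3 residual degrees of freedom, 4.32 prior, prior SD 0.282), for 3 comparisons, and the code was tested on simulated data. An exact permutation test of 2 against 2 arrays cannot go below p = 0.333, and none was run. Array values are given for CDKN1A, MDM2, BAX, BBC3 and FAS and, per comparison, the 8 member genes of smallest unadjusted p. From each of 5 other lists the 2 of smallest p are named, at the probe set of smallest p, which need not be the brightest. Further, 4 marker lists were checked. Some values that these rules select are not reported here. The brightest probe set of each gene enters medians over genes and counts of genes higher or lower. Counts given as probe sets, and the genes named with them, use all tested probe sets. Members, lists and rules were chosen with earlier results of these data known. Alternatives covered the filter, normalization, an offset, the variance trend, the replicate block and leaving out each array.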

Additional observations from a re-analysis of the deposited data

How the results depend on the processing

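None of the 79 member probe sets had an adjusted p under 0.05 in limma in any comparison, with no filter, a stricter filter, another quantile normalization, centred arrays, an offset of 50, an intensity trend, the 4 arrays of a comparison alone, any array left out, or a threshold of 0.1. With 2 arrays per group and replicates of the control shRNA groups far apart, small differences were not detectable, and for dim probe sets signal over background limits the values. Over the whole array, the count of probe sets past the threshold between SET8 and Wnt3a arrays was 0, but 15 with the trend, 28 with 4 arrays alone, 0 to 28 with an array left out and 19 at a threshold of 0.1. Between Wnt3a and control medium it was 0, but 2 each with the stricter filter, the offset, the trend and a threshold of 0.1. Between SET8 shRNA with Wnt3a and control shRNA with control medium it was 12, but 0 with no filter, 52 with the stricter filter, 6 with quantile normalization, 56 with the offset, 31 with the trend, 230 with 4 arrays alone, 0 to 230 with an array left out and 156 at a threshold of 0.1. Leaving out an array of the group outside a comparison repeats the fit of its 4 arrays alone, so these are not separate alternatives. Beyond that, why the counts move was not tested.

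The median of the 38 genes between SET8 and Wnt3a arrays was -0.277 to 0.0881 with an array left out. The 37 values of named member probe sets gave 618 values under the alternatives, of which 22 had the opposite sign. Most alternatives, such as the filters, the trend and the replicate blocks, leave a difference unchanged by construction. Only quantile normalization, centring, the offset and leaving out an array of a compared group could move it. The count therefore does not measure how stable the signs are. With quantile normalization, centring and the offset, MDM2 (AF092844) gave -0.0178, -0.0156 and -0.0113 between SET8 and Wnt3a arrays. With quantile normalization and centring it gave -0.0301 and -0.0407 for Wnt3a, and -0.0479 and -0.0563 for both together. With an array left out, MDM2 spanned -0.60 to 0.61 for SET8, -0.58 to 0.64 for Wnt3a and -0.315 to 0.381 for both. CDKN1A (NM_000389) spanned -0.12 to 0.38 for SET8 and -0.41 to 0.10 for both. BBC3 (AF354656) spanned -0.64 to 0.0929 for SET8 and -0.408 to 0.0692 for Wnt3a, MCL1 (BC071897) -1.21 to 0.17 for Wnt3a and POLH (NM_006502) -0.734 to 0.0313 for Wnt3a. TP53I3 (NM_004881) kept its direction, with -1.21 to -0.81 for SET8 with an array left out, as did FAS with 0.58 to 1.15.

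The replicate numbers were not taken to pair the samples, since they went together in 1 of 3 pairs of groups: deviations from the group means correlated at -0.29 between SET8 and Wnt3a groups, -0.29 between SET8 and control-medium groups and 0.75 between Wnt3a and control-medium groups over the tested probe sets. With the replicate number as a block, 0 probe sets passed in each of the 3 comparisons, and 0 members. Chosen after seeing the data, a block with the SET8 numbers exchanged gave 182 for SET8, 3 for Wnt3a and 792 for both, with 4 member probe sets (FAS, GDF15 and TP53I3) in the last. A term for the replicate gap in the control shRNA groups gave 535, 14 and 1503, with 2, 0 and 5 member probe sets.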

Other observations

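Of the 25 member probe sets too dim to test, a few stood apart by group; they were chosen after their values were seen and have no test. MDM2 at NM_006878 read 5.88 and 6.36 in SET8 arrays, 7.57 and 6.57 in Wnt3a arrays and 7.53 and 7.13 in control-medium arrays, while the other 5 dim probe sets of MDM2 differed by -0.37 to 0.35 between SET8 and Wnt3a arrays. BCL2 at NM_000633 read 4.95 and 5.08 in SET8 arrays, 4.02 and 4.30 in Wnt3a arrays and 4.35 and 3.94 in control-medium arrays, within reach of the random control probes. RRM2B, the ribonucleotide reductase subunit that p53 induces, did not stand apart at its brightest probe set, BC108261. The groups overlapped there, with 6.75 and 7.41 in SET8 arrays, 7.57 and 6.74 in Wnt3a arrays and 7.06 and 6.99 in control-medium arrays. Its other probe sets differed by -0.82 to 0.48 between SET8 and Wnt3a arrays.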
